A study of Mus musculus with 203 samples.

Results

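Car2 and 9 genes of osteoclast formation and fusion (Acp5, Ctsk, Dcstamp, Ocstamp, Atp6v0d2, Mitf, Nfatc1, Oscar and Itgb3) were examined in RNA-seq of RAW264.7 cells, a mouse macrophage line, with and without knockdown of the histone demethylase gene Kdm1a. The genes were taken by symbol, and all 10 were found among the 25094 genes of the RAW264.7 table and also among the 16478 genes of the table for bone marrow-derived macrophages (BMDMs), which holds comparisons between groups and no values per library. Car2 was chosen by its measured level, which was lower with the Kdm1a hairpin (shKDM1A), and the other 9 are genes of osteoclast formation that were listed with earlier results of these data known, so the differences of Car2 between shKDM1A and control cells are given as a description with no test. The values below come from 16 RAW264.7 libraries in 4 groups of 4: cells with a control hairpin (shGFP) and cells with shKDM1A, each untreated or treated with IL4 for 6 h at the 20 ng/ml that the RNA-seq protocol gives. Both lines were stable lines made with lentivirus and puromycin, so the shGFP cells had undergone the same transduction and selection. A single Kdm1a hairpin was used, and effects of that line other than lower Kdm1a cannot be told apart from the knockdown. No RANKL is named for any of these groups.

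Osteoclasts are multinucleated cells that arise when macrophage precursors exposed to M-CSF and RANKL fuse. RANK signalling, with costimulation through receptors that carry ITAM adaptors, raises the transcription factor Nfatc1, which acts with Mitf, PU.1 and AP-1 on the genes for fusion (Dcstamp, Ocstamp, Atp6v0d2) and resorption (Acp5, Ctsk, Car2). Carbonic anhydrase 2, the product of Car2, supplies the protons that the osteoclast pumps onto bone. IL4 is known to restrain RANKL-driven osteoclast formation and also to make macrophages fuse into giant cells.

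Values are the deposited log2 values, whose size is such that 2 raised to a value is about a normalised tag count, and which were moderated so that weakly expressed genes differ little between libraries. Total tags ranged from 17554721 to 27782568 per library. A gene was tested if 4 or more libraries reached a value of 1, which left 12905 genes and kept all 10 members, and a gene was called at a Benjamini-Hochberg adjusted p under 0.05 over those genes in limma. Of 8 macrophage markers in the table, 7 had medians from 9.81 (Fcgr1) to 16.94 (Lyz2), while Mertk did not pass the filter on low values. Of 24 markers of stromal, lymphoid, epithelial, endothelial, neutrophil and mast cells, 13 were listed at 0 in every library, and the highest median was 2.46 (Pdgfrb). The 8 macrophage markers together made 194500 to 200800 normalised tags in shGFP cells, 153200 to 155900 in shGFP cells with IL4, 223200 to 228600 in shKDM1A cells and 208400 to 223200 in shKDM1A cells with IL4, a sum in which Lyz2 weighs most. The markers did not move together: of 7 tested, 4 rose (Lyz2 by 0.26) and 3 fell (Fcgr1, -0.45) with shKDM1A without IL4 and 5 rose and 2 fell with IL4, while IL4 raised 2 (Adgre1 by 1.24) and lowered 3 (Cd14, -0.93) in shGFP cells and raised 3 and lowered 3 in shKDM1A cells. All 7 were thus called with shKDM1A in both conditions (38.2% and 40.7% of all genes), and 5 and 6 of 7 with IL4 (26.9% and 27.1%). Their part in the differences below was not tested. The labels do not say whether the libraries of a group came from separate cultures, so p-values measure the spread between these libraries only.

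Kdm1a itself (chromosome 4, 136106448 to 136158638 in mm9, minus strand) was lower in every shKDM1A library. Its log2 values were 11.21, 11.23, 11.13 and 11.17 in shGFP cells and 10.36, 10.32, 10.23 and 10.29 in shKDM1A cells, and with IL4 they were 11.12, 11.10, 11.12 and 11.07 against 10.32, 10.33, 10.34 and 10.28. The difference was -0.88 (standard error 0.028, adjusted p = 5.6e-13, limma) without IL4 and -0.79 (standard error 0.028, adjusted p = 2.2e-12) with IL4. Kdm1a mRNA was therefore 45.8% and 42.0% lower, a partial knockdown.

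Car2 lies on chromosome 3 from 14886288 to 14900770 (mm9, plus strand). In shGFP cells its log2 values were 12.80, 12.69, 12.78 and 12.86, and in shGFP cells with IL4 they were 12.28, 12.21, 12.27 and 12.23. In shKDM1A cells they were 11.33, 11.21, 11.25 and 11.26, and with IL4 11.05, 10.99, 11.07 and 11.01. The 4 groups did not overlap, and their order from high to low was shGFP, shGFP with IL4, shKDM1A and shKDM1A with IL4. Means were 12.78 ± 0.071, 12.25 ± 0.033, 11.26 ± 0.048 and 11.03 ± 0.036 (SD, n = 4), about 7054, 4859, 2457 and 2094 normalised tags. In bulk RNA, fewer cells with Car2 and less Car2 RNA per cell cannot be told apart. The difference between shKDM1A and shGFP cells was -1.52 without IL4, a level 65.2% lower and the 4th lowest difference among 12905 genes, and -1.21 with IL4, 56.9% lower and the 9th lowest. Car2 was thus reduced and not lost: its mean lay at the percentile 96.5 of genes tested in shGFP cells, 94.1 with IL4, 85.0 in shKDM1A cells and 81.8 in shKDM1A cells with IL4.

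IL4 alone also lowered Car2. The gene was not chosen by its IL4 difference, but the libraries compared here also served its choice, so these p-values are not independent of it. In shGFP cells Car2 fell (log2 difference -0.54, 95% confidence interval -0.61 to -0.47, adjusted p = 3.1e-09, limma), a level 31.1% lower. In shKDM1A cells it also fell (-0.23, 95% confidence interval -0.30 to -0.16, adjusted p = 7.0e-05), a level 14.8% lower. The IL4 difference was thus 0.31 nearer to 0 in shKDM1A cells, a value given without a test because it is made of the comparisons that chose the gene. Both comparisons of hairpins share libraries with the comparisons of IL4.

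**Figure D1:**
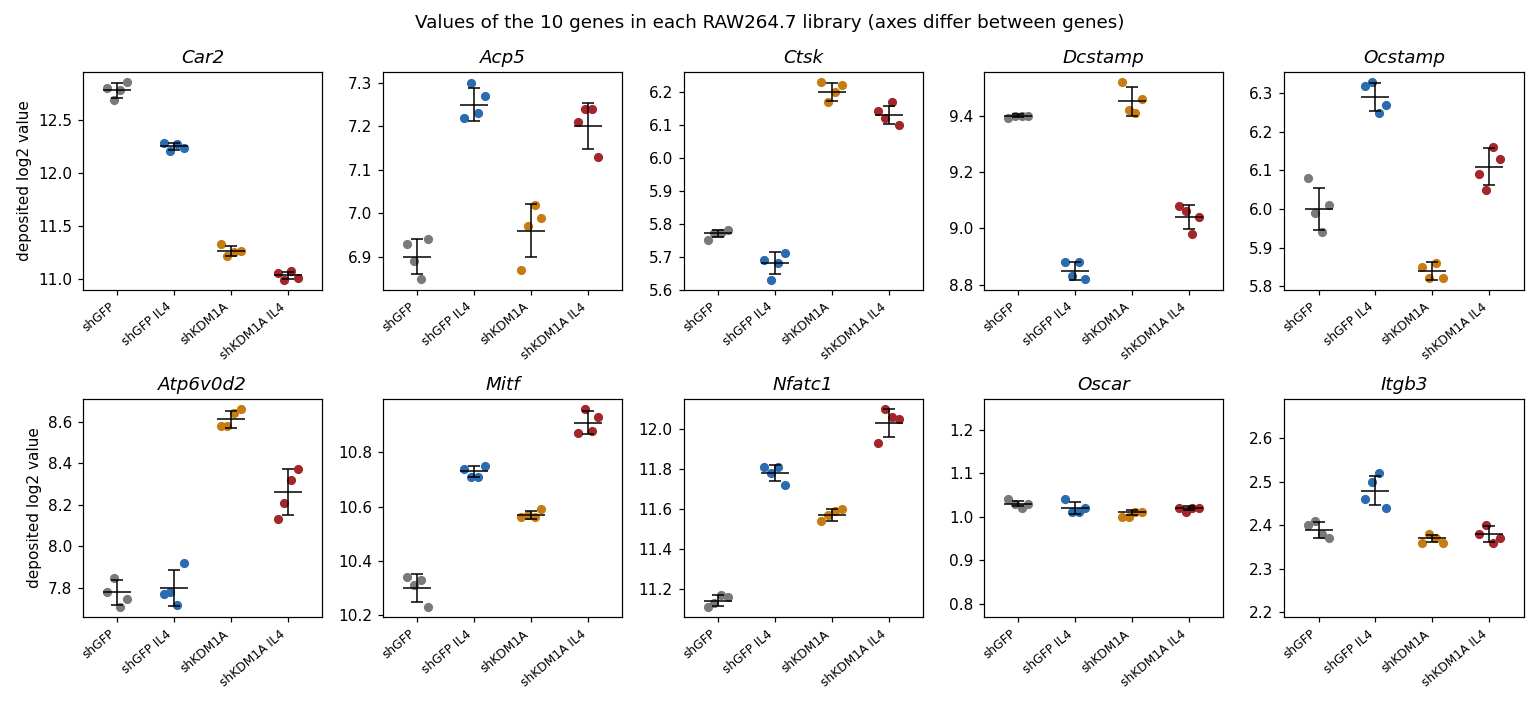
Deposited log2 value of each of the 10 genes (vertical axes, which differ between genes) in each library of the 4 groups of RAW264.7 cells; points are libraries, horizontal bars the group means and error bars the SD of 4 libraries. Car2 stands at 12.69 to 12.86 in shGFP cells and at 11.21 to 11.33 in shKDM1A cells, while Oscar stays at 1.00 to 1.04 throughout.

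Levels of different genes were compared per length, as the log2 value minus the log2 of the transcript length in kilobases. On this scale Car2 was the highest of the 10 genes in each group, at 11.84 in shGFP cells and 10.09 in shKDM1A cells with IL4. Nfatc1 came next, at 8.88 in shGFP cells and 9.78 in shKDM1A cells with IL4. Without division by length, Car2 was second to Nfatc1 in both shKDM1A groups. Dcstamp (8.40 in shGFP cells) and Mitf (8.02) followed, then Acp5 (6.47), Atp6v0d2 (6.46), Ctsk (5.11) and Ocstamp (5.04). Oscar (0.15) and Itgb3 (-0.14) were far lower, so that the 2 surface receptors among the members were hardly expressed. In shGFP cells the libraries of neighbours in this order overlapped for Acp5 and Atp6v0d2 and for Ctsk and Ocstamp, and in shKDM1A cells with IL4 for Atp6v0d2 and Acp5. Per length, Mitf was above Dcstamp in both groups with IL4 and below it in both groups without, with no overlap of libraries in any group. With IL4, Ocstamp was above Ctsk in shGFP cells (5.33 against 5.02) and below it in shKDM1A cells (5.15 against 5.48), also with no overlap. Atp6v0d2 was above Acp5 in untreated shKDM1A cells (7.30 against 6.53), while these genes overlapped in untreated shGFP cells. The changes of order of Mitf with Dcstamp and of Atp6v0d2 with Acp5 rest on the division by length: without it, the mean of Mitf was above that of Dcstamp and the mean of Atp6v0d2 above that of Acp5 in each group, and Ocstamp and Ctsk were at 6.11 and 6.13 in shKDM1A cells with IL4.

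**Figure D2:**
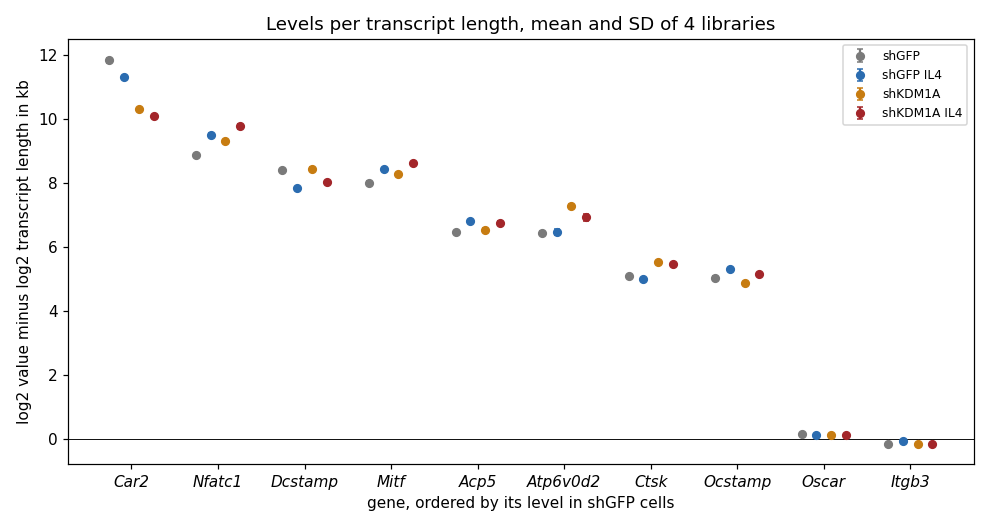
Log2 value minus log2 transcript length in kb (vertical axis) for the 10 genes, ordered by their level in shGFP cells, as mean and SD of 4 libraries in each group. Car2 is highest in every group, and Oscar and Itgb3 lie close to 0, at 0.15 and -0.14 in shGFP cells.

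Without IL4, 5 of the 9 other members were called between shKDM1A and shGFP cells, 4 higher and 1 lower, against 38.2% of all genes tested (19.7% higher and 18.4% lower). With IL4, 7 of 9 were called, 5 higher and 2 lower, against 40.7% of all genes (20.9% higher and 19.8% lower). The libraries of the 2 lines did not overlap for 7 of the 9 genes without IL4 (37.4% of all genes) and for 7 with IL4 (36.4%). The median difference of the 9 genes was 0.06 without IL4 and 0.18 with IL4, beside -0.003 and -0.002 over all genes. Apart from the receptors, the genes that were called ran in the direction opposite to Car2, except Ocstamp.

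Nfatc1, the transcription factor that drives osteoclast differentiation (chromosome 18, 80844174 to 80909810), was higher with shKDM1A and with IL4. Its log2 values were 11.11, 11.13, 11.17 and 11.16 in shGFP cells and 11.54, 11.57, 11.59 and 11.60 in shKDM1A cells. With IL4 they were 11.81, 11.78, 11.81 and 11.72 in shGFP cells and 11.93, 12.10, 12.06 and 12.05 in shKDM1A cells. No groups overlapped. Nfatc1 rose with shKDM1A by 0.43 (standard error 0.031, adjusted p = 1.2e-08) without IL4 and by 0.25 (adjusted p = 7.0e-06) with IL4. It rose with IL4 by 0.64 (95% confidence interval 0.57 to 0.70, adjusted p = 1.7e-10) in shGFP cells, the 91st largest IL4 difference in size among 12905 genes, and by 0.46 (95% confidence interval 0.39 to 0.53, adjusted p = 1.1e-08) in shKDM1A cells. The IL4 response of shKDM1A cells minus that of shGFP cells was -0.18 (standard error 0.045, adjusted p = 0.027), and this call was lost when any one of 5 libraries was left out (untreated shGFP replicate 1, shGFP IL4 replicates 1 and 3, and untreated shKDM1A replicates 3 and 4), with adjusted p from 0.054 to 0.058.

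Mitf, a basic helix-loop-helix leucine zipper factor of osteoclasts and pigment cells (chromosome 6, 97757052 to 97971352), had the same order of groups as Nfatc1. Its log2 values were 10.34, 10.31, 10.33 and 10.23 in shGFP cells and 10.56, 10.57, 10.56 and 10.59 in shKDM1A cells. With IL4 they were 10.74, 10.71, 10.71 and 10.75 against 10.87, 10.96, 10.88 and 10.93. The lines did not overlap in either condition. Mitf rose with shKDM1A by 0.27 (standard error 0.026, adjusted p = 3.8e-07) without IL4 and by 0.18 (adjusted p = 3.0e-05) with IL4. It rose with IL4 by 0.42 (adjusted p = 2.7e-09) in shGFP cells and by 0.34 (adjusted p = 5.4e-08) in shKDM1A cells. The difference between these IL4 responses, -0.09 (95% confidence interval -0.17 to -0.01), was not called (adjusted p = 0.18).

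Among the fusion genes that are members (Dcstamp, Ocstamp and Atp6v0d2), Atp6v0d2 had the largest difference with shKDM1A in both conditions. It encodes a subunit of the membrane sector of the vacuolar proton pump and is needed for efficient fusion (chromosome 4, 19803985 to 19849713). Its log2 values were 7.78, 7.85, 7.71 and 7.75 in shGFP cells, 7.77, 7.78, 7.72 and 7.92 in shGFP cells with IL4, 8.58, 8.58, 8.64 and 8.66 in shKDM1A cells and 8.13, 8.21, 8.32 and 8.37 in shKDM1A cells with IL4. The shGFP groups overlapped, and each shKDM1A group was above both. Atp6v0d2 rose with shKDM1A by 0.84 (standard error 0.051, adjusted p = 1.4e-09), or by 78.7%, without IL4 and by 0.46 (adjusted p = 2.1e-06), or by 37.6%, with IL4. IL4 changed it by 0.02 (95% confidence interval -0.09 to 0.13, adjusted p = 0.83) in shGFP cells, a value that was -0.02 without shGFP IL4 replicate 4. In shKDM1A cells it fell with IL4 (-0.36, 95% confidence interval -0.46 to -0.25, adjusted p = 6.0e-05). The IL4 response differed between the lines by -0.38 (95% confidence interval -0.53 to -0.22, adjusted p = 0.0058), the 25th lowest such difference of 12905 genes, and this was called also when each library in turn was left out, with values from -0.42 to -0.33. Of the 9 members tested for a difference in IL4 response, Atp6v0d2 and Nfatc1 were called, both lower, against 6.13% of all genes (3.56% higher and 2.57% lower).

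Dcstamp (chromosome 15, 39577476 to 39592484) encodes a membrane protein with several passes that osteoclast precursors need to fuse. Its log2 values were 9.39, 9.40, 9.40 and 9.40 in shGFP cells and 9.52, 9.42, 9.41 and 9.46 in shKDM1A cells. With IL4 they were 8.88, 8.83, 8.88 and 8.82 against 9.08, 9.06, 8.98 and 9.04. Both IL4 groups lay below both untreated groups. Dcstamp fell with IL4 in shGFP cells (-0.54, 95% confidence interval -0.60 to -0.49, adjusted p = 1.5e-10), the 57th lowest IL4 difference of 12905 genes, and in shKDM1A cells (-0.41, adjusted p = 5.1e-09). With shKDM1A the difference was 0.06 (adjusted p = 0.11) without IL4, not called, and Dcstamp rose by 0.19 (adjusted p = 3.2e-05) with IL4. The difference between the IL4 responses, 0.13 (95% confidence interval 0.05 to 0.21), missed the threshold (adjusted p = 0.052) and passed it without shKDM1A replicate 1 (adjusted p = 0.019) or shKDM1A IL4 replicate 3 (adjusted p = 0.026).

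Ocstamp, a related membrane protein of fusion (chromosome 2, 165220950 to 165225894), was lower with shKDM1A and higher with IL4. Its log2 values were 6.08, 5.99, 5.94 and 6.01 in shGFP cells and 5.85, 5.82, 5.86 and 5.82 in shKDM1A cells, and with IL4 6.32, 6.33, 6.25 and 6.27 against 6.09, 6.05, 6.16 and 6.13. The lines did not overlap in either condition. Ocstamp fell with shKDM1A, with a difference of -0.17 (adjusted p = 0.00026) without IL4 and -0.18 (adjusted p = 0.00012) with IL4. It rose with IL4 by 0.29 (adjusted p = 1.5e-06) in shGFP cells and by 0.27 (adjusted p = 2.9e-06) in shKDM1A cells. IL4 therefore lowered Dcstamp and raised Ocstamp in both lines.

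**Figure D3:**
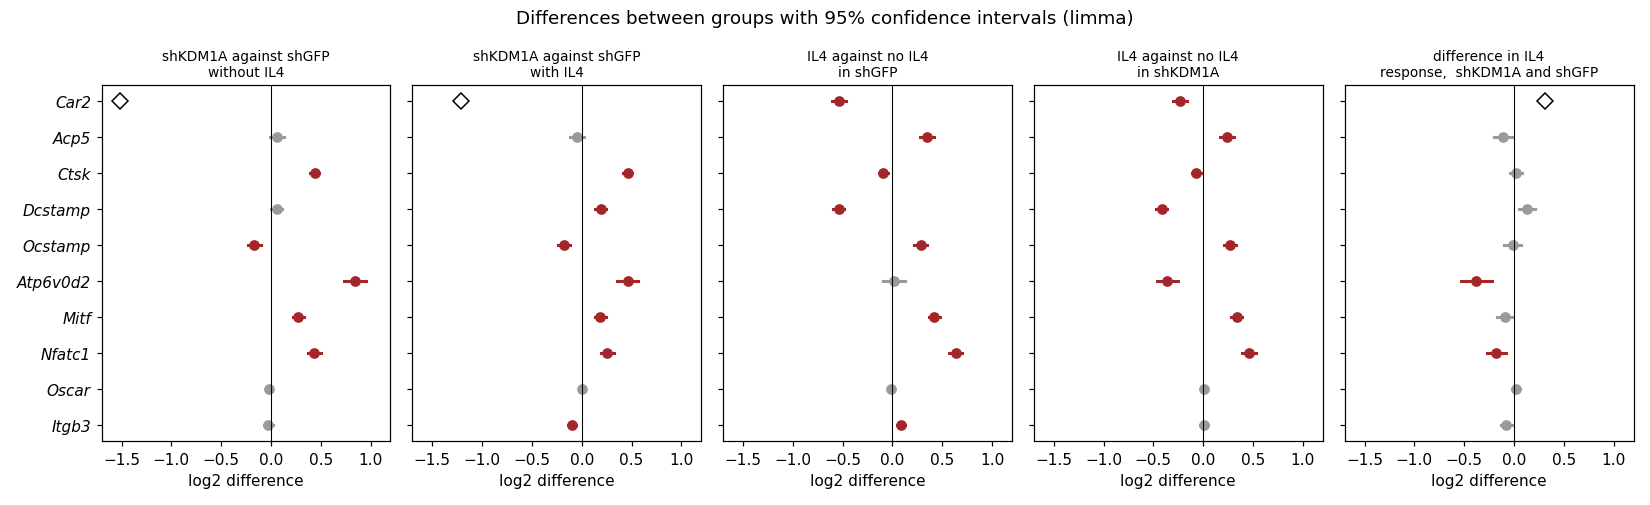
Log2 difference between groups (horizontal axes) for the 10 genes in the 4 comparisons of 2 groups and in the difference between the IL4 responses; bars are 95% confidence intervals from limma, red marks called differences, grey those not called, and open diamonds the Car2 values given without a test. Car2 lies at -1.52 and -1.21 with shKDM1A while Atp6v0d2 lies at 0.84 and 0.46.

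Among the resorption genes, Acp5 encodes the tartrate-resistant acid phosphatase by which osteoclasts are stained (chromosome 9, 21931171 to 21935042, minus strand), and Ctsk encodes cathepsin K, which degrades bone collagen (chromosome 3, 95303132 to 95313309). The 250 bases before the transcription start are shown for these genes because they responded to different factors, Acp5 to IL4 and Ctsk mainly to shKDM1A. The windows are from RefSeq on GRCm38.p6 (chr9:22130599-22130848, minus strand, and chr3:95498960-95499209, plus strand), and 4 of the 10 members, these with Mitf and Oscar, had such a window. Acp5 has 3 listed starts, and the one shown lies 1267 bases from the next, as the starts of the Acp5 transcripts of the BMDM and RAW264.7 tables do. Capitals mark matches, on either strand, to any of AP-1 (TGANTCA), NFAT (GGAAA), E-box (CANGTG), PU.1 (GAGGAA), STAT6 (TTC and GAA with 4 bases between) and TATA box (TATAAA) letters.
Acp5: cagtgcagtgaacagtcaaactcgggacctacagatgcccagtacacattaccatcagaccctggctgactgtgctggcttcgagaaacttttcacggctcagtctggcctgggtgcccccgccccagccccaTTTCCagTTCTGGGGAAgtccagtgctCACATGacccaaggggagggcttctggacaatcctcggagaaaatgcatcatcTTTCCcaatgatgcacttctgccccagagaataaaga
Ctsk: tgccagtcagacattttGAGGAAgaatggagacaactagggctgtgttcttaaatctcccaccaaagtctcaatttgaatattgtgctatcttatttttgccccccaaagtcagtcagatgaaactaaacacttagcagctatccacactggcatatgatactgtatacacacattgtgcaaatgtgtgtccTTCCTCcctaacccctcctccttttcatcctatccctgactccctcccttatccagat
The Acp5 window held a STAT6 match 110 bases before the start, an E-box match at 90 and NFAT matches at 117 and 37, none of which overlapped another. The Ctsk window held PU.1 matches at 233 and 58 bases before the start and none of the other motifs. The other 2 Acp5 windows, the 3 Mitf windows and the Oscar window held no STAT6 match, and Mitf also rose with IL4. Over 32851 windows of this length, 5.85% held the STAT6 letters, 39.5% the E-box, 55.6% the NFAT letters and 23.3% the PU.1 letters, and a match describes the letters only.

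Acp5 log2 values were 6.93, 6.89, 6.85 and 6.94 in shGFP cells and 6.87, 6.97, 7.02 and 6.99 in shKDM1A cells, and with IL4 they were 7.22, 7.30, 7.23 and 7.27 against 7.21, 7.24, 7.24 and 7.13. The lines overlapped in both conditions, and the IL4 groups lay above the untreated ones. Acp5 rose with IL4 by 0.35 (95% confidence interval 0.28 to 0.42, adjusted p = 5.8e-07) in shGFP cells and by 0.24 (95% confidence interval 0.17 to 0.31, adjusted p = 3.6e-05) in shKDM1A cells. Its difference with shKDM1A was 0.06 (95% confidence interval -0.01 to 0.13, adjusted p = 0.19) without IL4, which passed the threshold at 0.09 (adjusted p = 0.042) without shKDM1A replicate 1, and -0.05 (95% confidence interval -0.12 to 0.02, adjusted p = 0.28) with IL4.

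Ctsk log2 values were 5.75, 5.77, 5.77 and 5.78 in shGFP cells and 6.23, 6.17, 6.20 and 6.22 in shKDM1A cells, and with IL4 they were 5.69, 5.63, 5.68 and 5.71 against 6.14, 6.12, 6.17 and 6.10. The lines did not overlap in either condition. Ctsk rose with shKDM1A by 0.44 (standard error 0.021, adjusted p = 7.5e-11), or by 35.4%, without IL4 and by 0.46 (standard error 0.021, adjusted p = 4.3e-11), or by 37.3%, with IL4. The difference between its IL4 responses was 0.02 (95% confidence interval -0.04 to 0.08, adjusted p = 0.75). With IL4 Ctsk was slightly lower, with a difference of -0.09 (adjusted p = 0.0047) in shGFP cells and -0.07 (adjusted p = 0.023) in shKDM1A cells. The call in shKDM1A cells was lost without any one of 4 libraries (untreated shKDM1A replicates 1 and 4, and shKDM1A IL4 replicates 2 and 4), with adjusted p from 0.050 to 0.066, and under other settings of the fit.

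Of the surface receptors, Oscar, an immunoglobulin-like receptor that costimulates RANK through an ITAM adaptor (chromosome 7, 3561416 to 3567759), had values from 1.00 to 1.04 in all 16 libraries. None of its differences was called, the largest in size being -0.02 (95% confidence interval -0.05 to 0.01, adjusted p = 0.28) with shKDM1A without IL4. That difference passed the threshold without the filter on low values (adjusted p = 0.02) and with a trended prior variance (adjusted p = 0.023), and values this low were moderated most. Itgb3, the beta-3 chain of the vitronectin receptor that attaches osteoclasts to bone (chromosome 11, 104469314 to 104531785), had values from 2.36 to 2.52. It rose with IL4 by 0.09 (adjusted p = 0.0023) in shGFP cells, and with IL4 it was lower in shKDM1A than in shGFP cells (difference -0.10, adjusted p = 0.00042). In shKDM1A cells its IL4 difference was 0.01 (95% confidence interval -0.03 to 0.05, adjusted p = 0.73).

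With IL4, 8 of the 10 members were called in shGFP cells, 5 higher and 3 lower, against 26.9% of all genes. In shKDM1A cells 8 were also called, 4 higher and 4 lower, against 27.1% of all genes. Car2, whose choice used the same libraries, is counted in both lines. Untreated and IL4 libraries did not overlap for 8 of the 10 in shGFP cells (28.3% of all genes) and for 7 in shKDM1A cells (25.7%). The transcription factors Nfatc1 and Mitf, with Acp5 and Ocstamp, were higher with IL4 in both lines, and Car2, Dcstamp and Ctsk were lower in both.

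**Figure D4:**
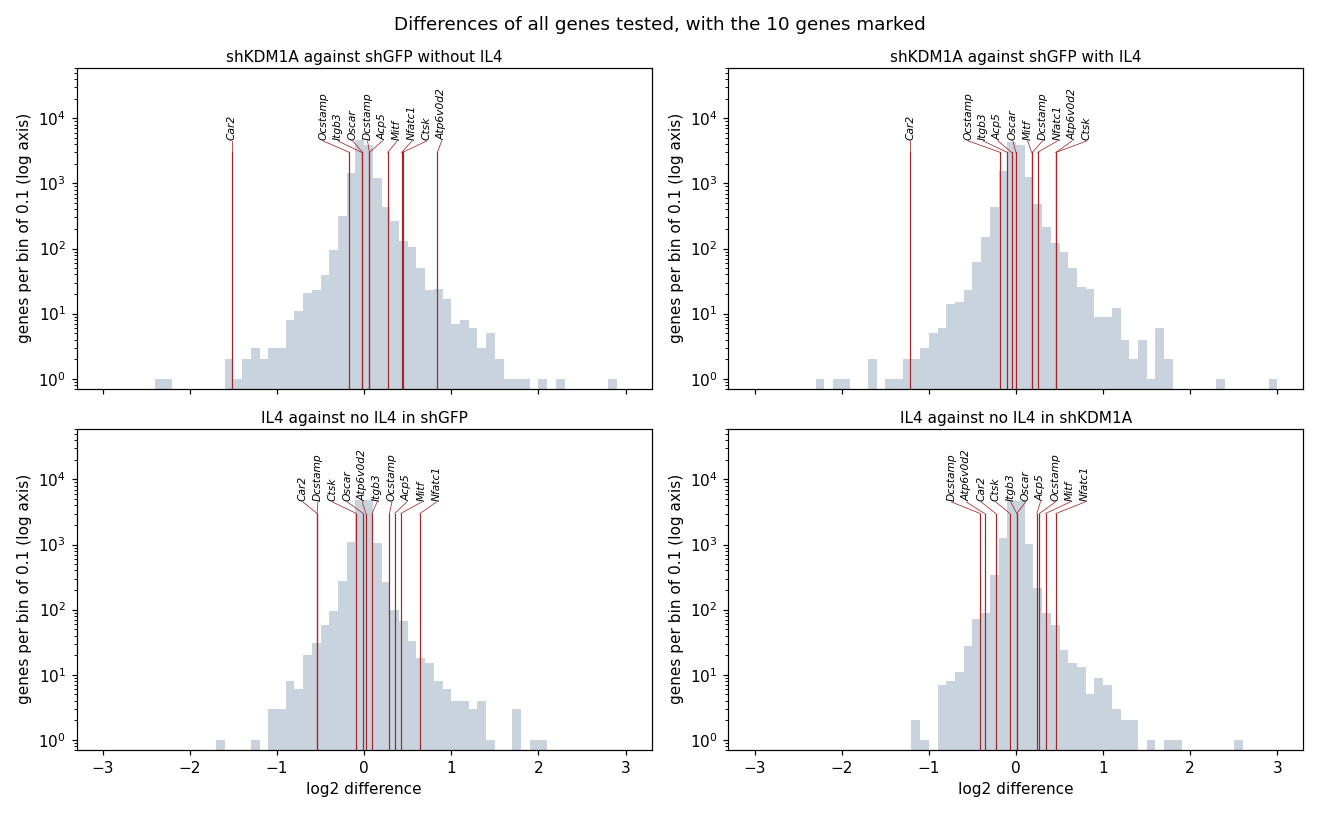
Number of genes (vertical axes, log scale) in bins of 0.1 of the log2 difference (horizontal axes) for the 12905 genes tested in each comparison, with the 10 genes marked by red lines. Car2 lies in the lower tail of both comparisons of shKDM1A with shGFP, at -1.52 and -1.21, and Atp6v0d2 in the upper tail at 0.84 without IL4.

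Of 15 other carbonic anhydrases in the table, 7 passed the filter on low values. With shKDM1A 3 of these 7 were called in each condition, all higher, a share near the 38.2% and 40.7% of all genes, and the other 4 were not called. Car12, a membrane-bound form, rose by 0.53 (adjusted p = 3.8e-08), from 9.06 to 9.59, without IL4 and by 0.60 (adjusted p = 7.3e-09) with IL4. Car5b, a mitochondrial form, rose by 0.30 (adjusted p = 1.7e-06) and 0.28 (adjusted p = 3.3e-06). Car13, a cytosolic form whose gene starts 244.6 kb from Car2 on chromosome 3, rose by 0.10 (adjusted p = 0.0071) in both conditions. Car3 and Car1, which lie between Car13 and Car2, were at -0.02 to 0.01 and listed at 0, respectively. With IL4, Car5b rose by 0.35 (adjusted p = 3.8e-07) in shGFP cells and by 0.34 (adjusted p = 7.3e-07) in shKDM1A cells, and Car13 fell, with a difference of -0.10, in both (adjusted p = 0.015 and 0.014).

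The 6 lists of related genes held 105 genes tested, of which 67 were called with shKDM1A without IL4 and 65 with IL4. That was 63.8% and 61.9%, beside 38.2% and 40.7% of all genes tested. The lists were fixed with earlier results of these data known, so their shares, here and for IL4 below, are descriptions and not a test. At most 3 called genes are named per list and comparison, so a gene not named for a condition may have differed there too. With a filter at a mean value of 5, 62 of 96 list genes (64.6%) were called in each condition, beside 43.4% and 46.5% of all genes. Of 20 other resorption genes, 12 rose and 3 fell with shKDM1A without IL4 (median 0.15, beside -0.003 over all genes), and 14 rose and 2 fell with IL4 (median 0.15). This list is not particular to osteoclasts: Ctsd and Ctsl, for example, stood at 14.81 and 12.69 in untreated shGFP cells, which are macrophages. The cathepsin gene Ctsl rose by 0.83 and 0.86, Ctsd by 0.49 and 0.57, and Atp6v1b2, a subunit of the proton pump, by 0.51 and 0.55 without and with IL4 (adjusted p at most 4.3e-11). Of 17 osteoclast transcription factors, 8 rose and 5 fell without IL4 (median 0.05) and 8 rose and 3 fell with IL4 (median 0.07). The AP-1 genes Fosl1 and Fos rose by 0.98 and 0.76 without IL4 and by 0.89 and 0.77 with IL4, Fosl2 rose by 0.84 without IL4, and Ppargc1b, a coactivator of mitochondrial genes, fell (-0.31) with IL4 (adjusted p = 0.0005).

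Of 27 genes of RANK and ITAM receptors and signalling, 5 rose and 6 fell with shKDM1A without IL4 (median -0.03), a share near the 38.2% of all genes, and 7 rose and 7 fell with IL4 (median 0.02). The kinase gene Syk fell (-0.40, adjusted p = 9.2e-11, without IL4 and -0.48, adjusted p = 9.4e-12, with IL4). Map2k6 (-0.30 and -0.28), the receptor gene Clec5a (-0.29 without IL4) and the kinase gene Tec (-0.29 with IL4) also fell. With IL4 the means of Clec5a were 12.35 in shKDM1A and 12.52 in shGFP cells. Of 16 repressors of osteoclast formation, 4 rose and 6 fell without IL4 (median -0.03) and 3 rose and 5 fell with IL4 (median -0.02). Without IL4, Id3, an inhibitor of helix-loop-helix factors, fell from 8.42 to 7.42 (adjusted p = 7.4e-11), and the inhibitory receptor gene Fcgr2b fell (-0.35). With IL4 the mean of Id3 was also lower in shKDM1A cells, at 10.01 against 10.33 in shGFP cells. Id1 fell (-0.49) with IL4, and without IL4 its means were 6.33 in shKDM1A and 6.59 in shGFP cells. Irf8 rose by 0.27 and 0.33, and Rbpj rose by 0.36 with IL4. Of 18 other fusion genes, 8 rose and 7 fell without IL4 (median 0.04) and 6 rose and 7 fell with IL4 (median 0.01). Adam8, a membrane metalloprotease, rose by 0.87 (adjusted p = 1.6e-14) and 0.85 (adjusted p = 2.2e-14), the tetraspanin Cd81 fell (-0.62 and -0.41), Sirpa fell (-0.47) without IL4, and Sh3pxd2a, an adaptor of podosomes, fell (-0.48) with IL4.

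**Figure D5:**
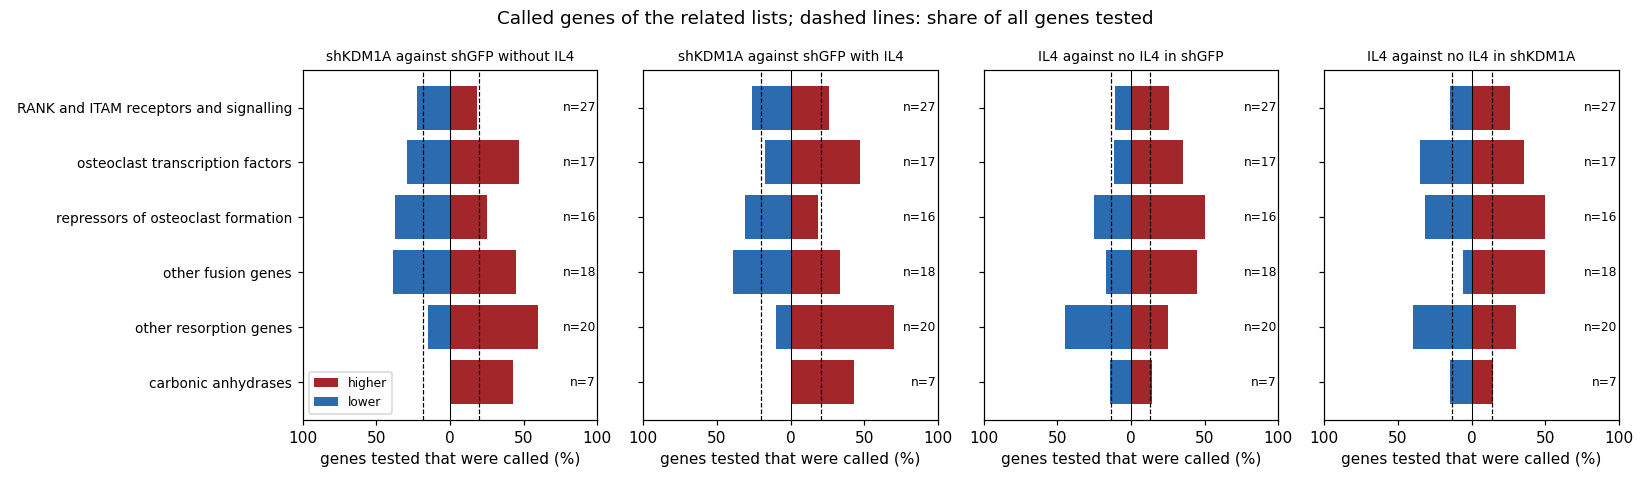
Share of the genes tested in each of 6 related lists that was called higher (red, to the right) or lower (blue, to the left), in percent, in the 4 comparisons; n is the number of genes tested and dashed lines give the share of all genes tested. Of 20 other resorption genes, 12 were higher and 3 lower with shKDM1A without IL4.

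The related lists responded to IL4 as follows, and the IL4 response differed between the lines for 12 of their 105 genes (11.4%, beside 6.13% of all genes). Of 105 genes, 57 were called in shGFP cells and 62 in shKDM1A cells, which was 54.3% and 59.0%, beside 26.9% and 27.1% of all genes tested. With a filter at a mean value of 5, 57 and 63 of 96 list genes were called (59.4% and 65.6%), beside 31.4% and 32.2% of all genes. Of the 16 repressors, 8 rose and 4 fell in shGFP cells (median 0.11) and 8 rose and 5 fell in shKDM1A cells (median 0.08). Id3 rose by 1.91 (adjusted p = 4.2e-14), Id2 by 1.72 and Id1 by 1.33 in shGFP cells, and by 2.60, 1.72 and 1.10 in shKDM1A cells. The IL4 response of Id3 was larger in shKDM1A cells by 0.69 (adjusted p = 2.2e-05). Of the 27 receptor and signalling genes, 7 rose and 3 fell in shGFP cells (median 0.00) and 7 rose and 4 fell in shKDM1A cells (median 0.00). Itgav, whose product pairs with that of Itgb3, rose by 1.14 (adjusted p = 5.9e-10) and 1.22 (adjusted p = 3.3e-10), the RANK gene Tnfrsf11a by 0.40 and 0.33, and Clec5a by 0.32 and 0.45, the last with a larger response in shKDM1A cells by 0.12 (adjusted p = 0.0099).

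Of the 18 other fusion genes, 8 rose and 3 fell with IL4 in shGFP cells (median 0.07) and 9 rose and 1 fell in shKDM1A cells (median 0.08). The scavenger receptor gene Cd36 rose by 1.73 (adjusted p = 8.7e-18) and 1.40 (adjusted p = 2.4e-16), with a response that differed in shKDM1A cells by -0.33 (adjusted p = 8.4e-06), the chemokine gene Ccl2 rose by 0.68 and 0.59, and Anxa5 fell (-0.48 and -0.34). The IL4 response differed between the lines for 6 of these 18 genes, among them Cd36, Cd81 and Sh3pxd2a, the last pair by 0.21 (adjusted p = 0.048) and -0.20 (adjusted p = 0.043). Of the 17 transcription factors, 6 rose and 2 fell in shGFP cells (median 0.00) and 6 rose and 6 fell in shKDM1A cells (median 0.02). Junb rose by 0.35 and 0.45 and Nfkb1 by 0.33 and 0.52 in shGFP and shKDM1A cells. Fos rose by 0.34 in shGFP cells, and in shKDM1A cells its mean went from 10.55 to 10.9. Fosl2 fell (-0.45) in shKDM1A cells. The IL4 responses of Fosl2, Jdp2 and Nfkb1 differed between the lines by -0.55 (adjusted p = 5.6e-06), -0.23 (adjusted p = 0.0047) and 0.19 (adjusted p = 0.00089). Of the 20 other resorption genes, 5 rose and 9 fell in shGFP cells (median -0.06) and 6 rose and 8 fell in shKDM1A cells (median -0.06), among them Ctsb by -0.40 and -0.38, Ctsd by -0.32 and -0.24, and Atp6v1a by -0.25 and -0.38. Acp1, a phosphatase gene, differed in its response by 0.15 (adjusted p = 0.003).

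The 5 genes whose 16 values had the highest Pearson correlation with those of Car2 were Rcsd1 (Pearson r = 0.992), Cyfip2 (0.989), Ppfia4 (0.987), Zfp385a (0.984) and Cdca7 (0.982), with Spearman's rho of 0.924, 0.924, 0.918, 0.874 and 0.968. This list depends on the measure of likeness: the 5 highest by Spearman's rho, and the 5 highest by deviations from the group means, held 0 of these genes. Rcsd1 went from 8.92 in shGFP cells to 8.42 with IL4, 7.67 in shKDM1A cells and 7.43 in shKDM1A cells with IL4. The libraries form 4 groups, so these values describe the group means, and the correlation of deviations from the group means ranged from -0.316 (Cyfip2) to 0.413 (Zfp385a). Of 12904 genes compared, 52 had r over 0.95. No other member was among them: the highest was Oscar at 0.512, and the lowest were Ctsk at -0.884 and Atp6v0d2 at -0.842.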

How the data were processed

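RNA was sequenced from 16 RAW264.7 libraries in 4 groups (n = 4), assigned from the labels. The authors aligned reads (HISAT2 and Bowtie2 are named in the submitters' processing notes), counted them on RefSeq exons of mm9 with HOMER on both strands, condensed them to single gene rows and ran DESeq2 between groups. The deposited values per library are log2 normalised tag values with decimal commas, moderated at low expression; the transformation is not given in the sources used here. The other table, for BMDMs, holds, for each pair of groups, the fold change and raw and adjusted p-values the authors computed, which were not used, nor were such columns of the RAW264.7 table.

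Genes that reached a value of 1 in 4 or more libraries were fitted with limma 3.58.1 in R 4.3.3 (group means of all 16 libraries, eBayes, 5 contrasts), with Benjamini-Hochberg adjustment per contrast. No pseudocount was added, as the values are logarithms. Differences of moderated values understate those of weakly expressed genes. On simulated data of 12905 genes with independent noise and 200 changed, 194 were recovered with 12 false calls. A far larger share of genes was called in the real data, and several called differences of members were smaller than any simulated. The simulation thus checks the fit and does not measure its errors here. No member's span overlapped another gene of the table. The members and lists were chosen with earlier results of these data known. Named were the 10 members, Kdm1a, the 5 genes most like Car2, and from each list at most 3 called genes per contrast by size; other carbonic anhydrases near Car2 were named after their values were seen. Alternatives changed the filter, the groups fitted, a replicate block, the scaling, the prior variance and the libraries. Total tags ranged from 17554721 to 27782568.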

Additional observations from a re-analysis of the deposited data

Results flagged for a closer look

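The IL4 response of Atp6v0d2 differed between shKDM1A and shGFP cells by -0.38 on the log2 scale (adjusted p = 0.0058, limma, interaction contrast), with a change of 0.02 in shGFP cells and -0.36 in shKDM1A cells. That of Nfatc1 differed by -0.18 (adjusted p = 0.027), with 0.64 in shGFP cells and 0.46 in shKDM1A cells, a call that was lost when any 1 of 5 libraries was left out (shGFP replicate 1, shGFP IL4 replicates 1 and 3, and shKDM1A replicates 3 and 4, adjusted p = 0.054 to 0.058). Both are noted because an effect of the same treatment differed between the lines. In 44 sets of 4 libraries (the 10 members and Kdm1a in 4 groups), 0 had a library far from the other 3 by Dixon's test, where chance gives about 1 in 20.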

How the results depend on the processing

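Over 23 alternatives, the 47 tested combinations of member and comparison gave 1071 values, as Oscar and Itgb3 give none with a filter at a mean of 5 (10 values). Of these, 1041 kept their direction and side of the threshold, 13 no longer passed it, 8 newly passed it and 9 turned sign, all 9 of them at values of 0.02 or less in size. The sign turned for Oscar with shKDM1A under IL4 (0.01 with median centring and without shGFP IL4 replicate 1, 0.00 with quantile normalization, without shGFP IL4 replicate 4 and without shKDM1A IL4 replicate 2), for Atp6v0d2 with IL4 in shGFP cells (-0.02 without shGFP IL4 replicate 4, and up to 0.05 without other libraries) and for the Ocstamp difference in IL4 response (0.01 with quantile normalization and without shGFP replicate 3, 0.00 without shKDM1A IL4 replicate 2, and down to -0.04 without other libraries). The count of members whose IL4 response differed, 2, ranged from 1 to 3 when a library was left out. The 5 genes most like Car2 shared 0 genes with those by Spearman's rho and 0 with those by deviations from the group means. The Ctsk call with IL4 in shKDM1A cells was also lost with the compared groups alone (adjusted p = 0.058), median centring (0.056), quantile normalization (0.075) and a trended prior (0.11), and the Dcstamp difference in IL4 response was called with median centring (0.038) and quantile normalization (0.026); the cause was not tested. The 69 values of Car2 between the lines, which have no test, moved by less than the SD between libraries. Median centring and quantile normalization moved the median of all genes by at most 0.010. The share of calls that were higher moved with them, from 51.7% to 43.2% (quantile normalization) with shKDM1A without IL4, from 51.3% to 56.7% (median centring) and 45.0% (quantile normalization) with IL4, from 50.1% to 56.5% (median centring) for IL4 in shKDM1A cells and from 58.0% to 66.2% (median centring) for the difference in IL4 response.

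Same-numbered libraries mostly did not deviate together (24 pairs, correlation -0.343 to 0.273, median 0.045, 3 over 0.1), and the main fit used no pairing. Libraries with different numbers reached 0.357 (shGFP replicate 4 with shKDM1A IL4 replicate 3) and -0.334 (shGFP replicate 4 with shKDM1A IL4 replicate 2). Whether libraries of different groups shared their handling was not tested. With a replicate block, 5, 7, 8, 8 and 2 members were called in the 5 comparisons, as without it. Moderation and low levels limit what can be seen for Oscar and Itgb3.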
